A study of Rattus norvegicus with 15 samples.

Results

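The circadian clock genes read here were Arntl (also called Bmal1), Nr1d1, Nr1d2, Per1, Per2, Dbp, Tef and Bhlhe40, found by gene symbol in the platform annotation. All 8 listed genes had a probe set, and together they held 10 of the 15866 probe sets of the array that are not controls: 3 for Nr1d2 and 1 for each of the others. The arrays measured RNA of the ipsilateral posterior cerebral artery of Sprague Dawley rats aged 7 weeks and weighing 300 to 350 g, with the arteries of 8 rats pooled on each Affymetrix Rat230A array. The 15 arrays formed 5 groups of 3: 3-vessel occlusion (3VO) collected 24 h after surgery, sham surgery collected at 24 h, 3VO collected at 3 d, sham surgery collected at 3 d, and intact rats. 3VO coagulated both vertebral arteries and ligated the left common carotid artery, a model of low cerebral blood flow without ischaemia, and sham surgery exposed the same vessels and left them untouched. Operated rats had isoflurane and buprenorphine, the text for intact rats names no surgery or analgesia, and all brains were perfused with latex under papaverine. Each value is thus a mean over 8 rats, and the labels give no clock time of collection.

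The mammalian clock is a feedback loop of transcription. ARNTL and CLOCK bind E-boxes and switch on the Per and Cry genes, the nuclear receptors Nr1d1 and Nr1d2 (REV-ERB alpha and beta) and the output genes Dbp and Tef, and the PER and CRY proteins then shut ARNTL and CLOCK off. The NR1D1 and NR1D2 proteins in turn repress Arntl through another element, the RORE, so that Arntl peaks when Dbp, Nr1d1 and the Per genes are low. Vessel walls hold such a clock in smooth muscle and endothelium. In tissues of rats and mice Dbp, Nr1d1 and Arntl are among the genes with the widest daily swing, so their levels can follow the phase of a tissue. Phase could not be measured here, in pools that held other tissue and had no clock time.

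The elements through which the loop acts are short words in promoters, shown here because some of these genes varied together across arrays. A link between these words and that variation was not tested. Windows of 300 bases, from 250 before to 50 after the annotated start, were taken from RefSeq (build GRCr8) and searched on both strands for the E-box CACGTG, the E-prime box CACGTT, the D-box TTATGTAA (the element of DBP, TEF, HLF and NFIL3) and the RORE. The E-box was present in the windows of 3 of the 8 genes (Nr1d1, Bhlhe40 and Tef) and in 6.42% of all 33469 promoter windows. The E-prime box was present in those of Per2 and of another start of Nr1d1, against 4.83% of all windows. The D-box was present in that of Per2, against 0.893%, and the RORE in that of Arntl, against 0.356%. Genes were counted by any of their starts, as with the other start of Nr1d1, while the percentages are of single windows, so the units differ. None of the matches in the windows of the 8 genes overlapped another. None of these letters is in the windows of Per1, Dbp and Nr1d2, which says nothing of sites elsewhere. The first sequence is Nr1d1 (chr10:84229405-84229704, minus strand) with its E-box in capitals, from -191 to -186 relative to the start. The second is Per2 (chr9:99496944-99497243, minus strand) with the D-box from -192 to -185 and the E-prime box from -62 to -57 in capitals, and the third is Arntl (chr1:176766078-176766377, plus strand) with the RORE from -20 to -10 in capitals.
Nr1d1: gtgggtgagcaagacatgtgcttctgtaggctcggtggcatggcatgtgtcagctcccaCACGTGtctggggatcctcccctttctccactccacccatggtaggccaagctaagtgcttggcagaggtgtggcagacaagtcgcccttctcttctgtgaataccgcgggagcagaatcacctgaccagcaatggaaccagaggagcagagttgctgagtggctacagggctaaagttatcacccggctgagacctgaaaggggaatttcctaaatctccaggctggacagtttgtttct
Per2: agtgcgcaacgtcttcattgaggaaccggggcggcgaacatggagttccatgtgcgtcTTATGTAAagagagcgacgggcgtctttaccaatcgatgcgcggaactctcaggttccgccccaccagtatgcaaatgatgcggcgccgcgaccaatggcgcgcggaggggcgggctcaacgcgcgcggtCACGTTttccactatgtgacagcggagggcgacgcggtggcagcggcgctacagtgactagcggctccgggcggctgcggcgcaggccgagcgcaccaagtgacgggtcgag
Arntl: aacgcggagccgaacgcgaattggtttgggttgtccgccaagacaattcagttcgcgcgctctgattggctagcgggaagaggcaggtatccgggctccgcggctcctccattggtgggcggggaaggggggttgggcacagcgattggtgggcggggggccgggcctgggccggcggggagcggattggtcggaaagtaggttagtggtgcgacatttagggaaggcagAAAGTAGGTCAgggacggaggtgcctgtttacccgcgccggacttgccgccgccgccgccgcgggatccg

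Values are the deposited linear array signals, scaled by the authors to a common level on each array, so that their trimmed mean (2% off either end) came to 5000 on every array against a stated target of 500. The median signal per array ran between 2553 and 2938. Tests ran on log2(signal + 16) over the 15737 probe sets whose signal reached 100 on 3 arrays or more, which all 10 clock probe sets passed. A gene is said to pass where the Benjamini-Hochberg adjusted p of limma over all 15737 was under 0.05. Arterial markers were bright on all 15 arrays, with Acta2 (smooth muscle actin) between 26698 and 84639 and Pecam1 (endothelial adhesion molecule) between 999 and 5885. Markers of neighbouring tissue were bright too and varied more, with Snap25 (neuronal synapses) between 16616 and 124806 and Ttr (choroid plexus) between 9354 and 282179. Such tissue was part of each pool, and in bulk RNA fewer cells of a type and less RNA per cell cannot be told apart. For 1 array titled sham at 3 d, called array 1 of that group below, the treatment text describes the occlusion, so results that rest on it are also given without it.

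Arntl (probe set 1370510_a_at), the activator of the loop, had signals of 1312, 1570 and 1665 on the 3VO arrays of 24 h, against 1209, 2733 and 1403 on the sham arrays of 24 h. At 3 d it had 2010, 1661 and 2244 on the 3VO arrays, against 2219, 1385 and 1911 on the sham arrays, and the intact arrays had 2584, 2711 and 1785. Both the lowest and the highest of the 15 values lay within the sham group of 24 h, a 2.26-fold spread that was wider than the 1.56-fold gap between the highest and the lowest group mean. All 3 arrays of 3VO at 24 h lay below all 3 intact arrays, and other groups overlapped the intact arrays.

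Nr1d1 (1370816_at), the repressor of Arntl and itself an E-box target, had 4623, 5888 and 4423 on the 3VO arrays of 24 h, against 7107, 3983 and 7044 on the sham arrays of 24 h. After 3 d the signals were 3519, 4705 and 3339 on the 3VO arrays, against 5451, 8162 and 7472 on the sham arrays, with 3155, 5456 and 4310 on the intact arrays. The 3VO arrays of 3 d all lay below the sham arrays of 3 d, and the groups at 24 h overlapped. Its group means ordered as sham 3 d (7028 ± 1409), sham 24 h (6045 ± 1786), 3VO 24 h (4978 ± 794), intact (4307 ± 1150) and 3VO 3 d (3855 ± 742, SD, n = 3 arrays each), and each neighbouring pair overlapped.

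Nr1d2, the paralogue of Nr1d1 with overlapping function, was read by 3 probe sets. The brightest, 1390430_at, had 12781, 13954 and 12915 on the 3VO arrays of 24 h, against 15650, 11724 and 14911 on the sham arrays of 24 h. Values at 3 d were 10144, 13622 and 7955 on the 3VO arrays, against 11489, 16866 and 15195 on the sham arrays, with 15151, 13696 and 13522 on the intact arrays. Its lowest value of all was on 3VO array 3 of 3 d and its highest on sham array 2 of 3 d, and these groups overlapped.

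The other Nr1d2 probe sets did not follow it closely. Probe set 1370541_at had 6553, 8192 and 8617 on the 3VO arrays of 24 h and 8900, 7284 and 7896 on the sham arrays of 24 h, against 6239, 5786 and 5475 on the intact arrays. The 3 d signals were 4274, 8058 and 5211 on the 3VO arrays, against 6222, 8768 and 6753 on the sham arrays. Both groups of 24 h lay above the intact arrays in this probe set and neither did in the brightest one. Probe set 1370540_at, the dimmest, had 2499, 1955 and 2018 on the 3VO arrays of 24 h, 2144, 1079 and 1920 on the sham arrays of 24 h, 1511, 2897 and 1198 on the 3VO arrays of 3 d, 726, 1431 and 1906 on the sham arrays of 3 d, and 1710, 1134 and 1338 on the intact arrays. Its 3VO arrays of 24 h lay above the intact arrays, and its other groups overlapped the intact arrays. The brightest probe set had a Pearson r of 0.65 with 1370541_at and of 0.40 with 1370540_at over the 15 arrays, given as a description of probe sets that share a transcript, so statements on Nr1d2 depend on the probe set.

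Per1 (1374855_at), a repressor of the loop that is also induced directly by light, stress hormones and cAMP signalling, split into 2 bands. It had 3322, 3507 and 3763 on the 3VO arrays of 24 h, against 2492, 1093 and 3343 on the sham arrays of 24 h. At 3 d it had 4577, 4197 and 883 on the 3VO arrays, against 805, 4046 and 1037 on the sham arrays, with 2934, 3207 and 2575 on the intact arrays. On 4 arrays the signal was at most 1093 and on the other 11 it was at least 2492, with none between. The low arrays were sham array 2 of 24 h, 3VO array 3 of 3 d, and sham arrays 1 and 3 of 3 d, so the bands cut across the groups, and the 5.69-fold range over 15 arrays was the widest among these genes.

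Per2 (1368303_at), another PER repressor, had 5484, 4208 and 3387 on the 3VO arrays of 24 h, against 3868, 2749 and 4441 on the sham arrays of 24 h. After 3 d the signals were 5464, 4889 and 2308 on the 3VO arrays, against 2555, 4508 and 6725 on the sham arrays, with 2014, 4304 and 1807 on the intact arrays. The intact group had the lowest mean (2708 ± 1386, SD, n = 3), but its array 2 lay among the operated arrays. Sham array 3 of 3 d had the highest Per2 signal of all while its Per1 signal was in the low band.

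Dbp (1387874_at), the output activator at D-boxes, had 13110, 13420 and 13343 on the 3VO arrays of 24 h, against 16411, 7336 and 13021 on the sham arrays of 24 h. Values at 3 d were 7602, 13637 and 6694 on the 3VO arrays, against 9178, 17803 and 15239 on the sham arrays, with 6761, 12368 and 10422 on the intact arrays. The 3VO arrays of 24 h agreed within 1.02-fold and all lay above the intact arrays, while the sham arrays of 24 h differed among themselves by 2.24-fold. The 3VO group of 3 d had the lowest mean (9311 ± 3774) and the sham group of 3 d the highest (14073 ± 4429, SD, n = 3 each), and their arrays overlapped.

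Tef (1369919_at), a relative of Dbp that binds the same element, had 2234, 2199 and 1256 on the 3VO arrays of 24 h, against 1743, 1679 and 2502 on the sham arrays of 24 h. The 3 d signals were 1631, 2399 and 1733 on the 3VO arrays, against 1392, 2526 and 3884 on the sham arrays, with 1998, 1484 and 1414 on the intact arrays. All groups overlapped, and the widest spread, 2.79-fold, was among the sham arrays of 3 d. Bhlhe40 (DEC1, 1369415_at), a repressor that competes for E-boxes, had 1706, 2004 and 1947 on the 3VO arrays of 24 h, against 2144, 1281 and 1351 on the sham arrays of 24 h. At 3 d it had 1839, 2198 and 2037 on the 3VO arrays, against 1247, 1869 and 1712 on the sham arrays, with 1381, 1748 and 1987 on the intact arrays. Bhlhe40 had the narrowest range of these genes, 1.76-fold over all 15 arrays, and its groups overlapped.

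**Figure D1:**
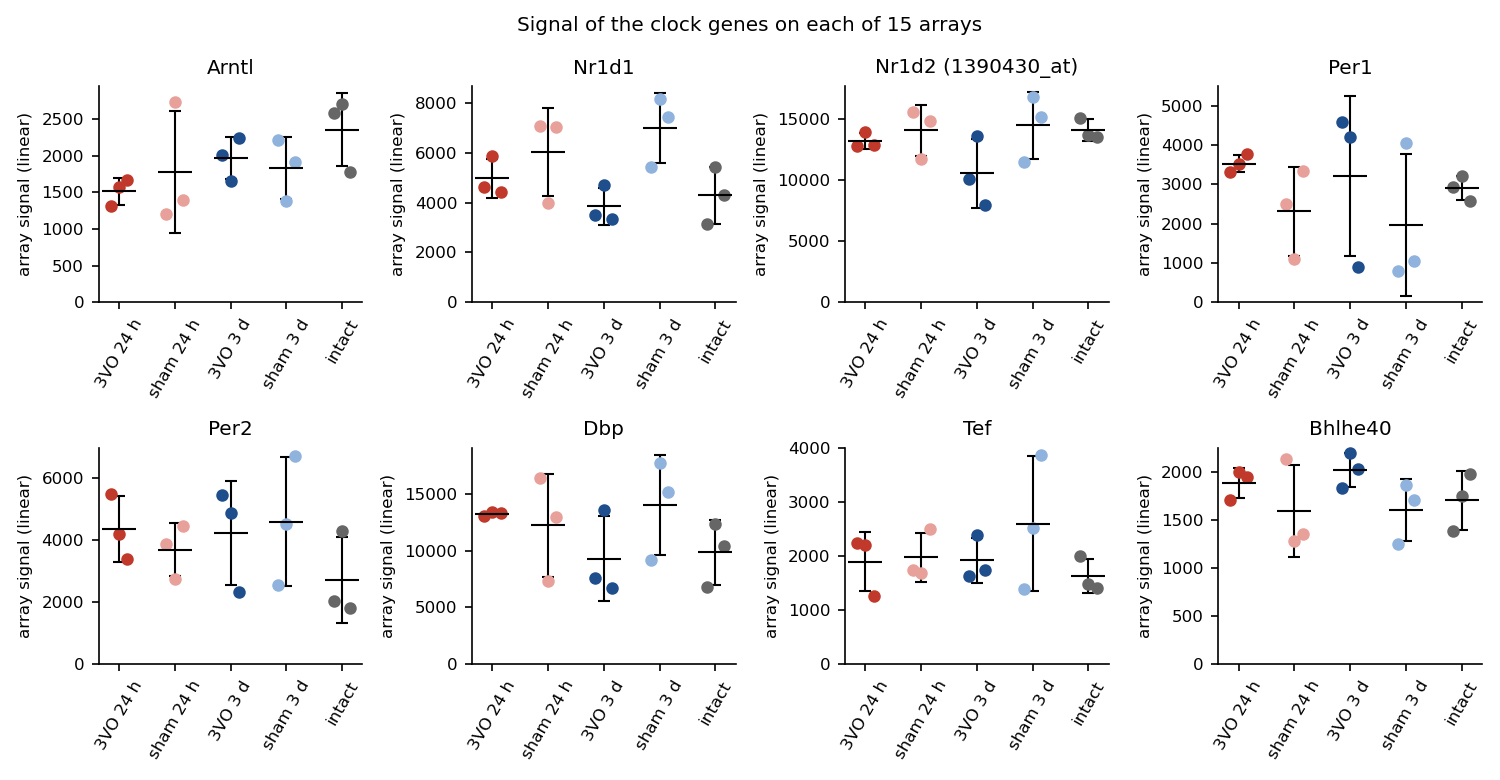
Array signal (linear scale from 0) of the 8 clock genes in the 5 groups, with 1 point per array, the horizontal line at the group mean and bars of 1 SD (n = 3); Nr1d2 is shown by its brightest probe set. Nr1d1 at 3 d is the 1 panel in which all 3VO points lie below all sham points, and Per1 shows 4 arrays at or under 1093 apart from the other 11.

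Spread within groups was uneven. The 3VO arrays of 24 h were the closest together of the 5 groups in 7 of the 10 clock probe sets, against 25.5% of all 15737 probe sets. The median SD (log2) over the clock probe sets was 0.18 in that group, 0.44 in sham at 24 h, 0.43 in 3VO at 3 d, 0.42 in sham at 3 d and 0.28 in intact arteries. Over all probe sets the median was 0.24 in 3VO at 24 h, 0.25 in sham at 24 h, 0.27 in 3VO at 3 d, 0.30 in sham at 3 d and 0.33 in intact arteries. The clock median was thus above that of all probe sets in 3 groups and below it among the 3VO arrays of 24 h and the intact arrays. These counts and medians are descriptions, since 3 probe sets share 1 gene and spreads over 3 arrays are imprecise.

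The occlusion was set against sham surgery at each time. At 24 h, 0 of the 10 clock probe sets passed in limma, where 0.0508% of all probe sets passed. An unadjusted p under 0.05 was held by 0 of the 10, against 1097 of all 15737 probe sets. None of the 10 had arrays that did not overlap between the groups, against 15.4% of all probe sets. The clock probe sets split into 5 higher and 5 lower, with a median log2 difference of 0.07 against -0.02 over all probe sets. At 3 d, 0 of the 10 passed, where 0% of all probe sets passed. An unadjusted p under 0.05 was held by 2 of the 10 (Nr1d1 and Nr1d2 1390430_at, both lower), against 745 of all 15737 probe sets. Only Nr1d1 had arrays that did not overlap, 1 of 10 against 9.09% of all probe sets.

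The log2 difference of Nr1d1, 3VO minus sham at 3 d, was -0.86 (SE 0.26, 95% interval -1.41 to -0.31), with an unadjusted p of 0.00432 and an adjusted p of 0.763 in limma. Without the array whose treatment text describes the occlusion it was -1.03 (adjusted p = 0.583). The summed signal of the 10 smooth muscle markers, all with a probe set and none below 100 on any array, was 257433 to 421728 on the 3VO arrays of 3 d, against 331307 to 553305 on the sham arrays of 3 d. With the mean of those markers as a covariate the Nr1d1 difference was -0.64 (adjusted p = 0.903), and with the neuron markers it was -0.75 (adjusted p = 0.591). The change in the occlusion effect between the times, 3 d minus 24 h, passed for 0 of the 10 clock probe sets, with 0% of all probe sets passing. For this change 0 of the 10 had an unadjusted p under 0.05, against 438 of all 15737 probe sets. Standard errors of the clock genes ran between 0.18 and 0.62 (log2) for differences of 2 groups, so differences of that size lay within the error of 3 arrays a group.

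Each operated group was then set against the intact arteries, which all 4 comparisons share. With 3VO at 24 h, 0 of 10 clock probe sets passed in limma, where 0.184% of all probe sets passed. An unadjusted p under 0.05 was held by 0 of the 10, against 1567 of all 15737 probe sets. The arrays did not overlap in 5 of the 10, against 13.8% of all probe sets, and these 5 came from 4 genes. Arntl had a log2 difference of -0.62 (SE 0.31, 95% interval -1.27 to 0.04, adjusted p = 0.526). Dbp was 0.48 (SE 0.33, adjusted p = 0.665), Per1 0.28 (SE 0.62, adjusted p = 0.920), Nr1d2 0.41 in 1370541_at (SE 0.20, adjusted p = 0.526) and 0.64 in 1370540_at (SE 0.40, adjusted p = 0.613). The direction, Arntl low and E-box targets high, was thus shared by these non-overlapping probe sets, which this same comparison picked, but none passed. Of all 10, 8 were higher and 2 lower, Arntl and the brightest Nr1d2 probe set. The latter averaged 13217 ± 642 on the 3VO arrays of 24 h and 14123 ± 894 on the intact arrays (SD, n = 3 each). The brightest Nr1d2 probe set and Nr1d1 overlapped the intact arrays, and this 3VO group was also the one in which clock probe sets spread least.

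Markers of other cells were read in the same comparison. Of the 12 macrophage markers with a probe set (of 14), 12 were higher. In limma 4 of the 12 passed (smallest adjusted p = 0.00446), against 0.184% of all probe sets. Of the 12, 8 were without overlap, against 13.8% of all probe sets. The summed signal of the macrophage markers was 298119 to 441957 on the 3VO arrays of 24 h. It was 144952 to 264417 on the intact arrays, and no value was below 100. With the mean of the macrophage markers as a covariate, chosen after the data had been seen, the Arntl difference turned to 0.16 (adjusted p = 0.951) and that of Dbp to -0.0075 (adjusted p = 0.998). Per1 was then 0.05, and Nr1d2 was 0.08 in 1370541_at and 0.34 in 1370540_at. The macrophage sums did not overlap between these groups, so this covariate runs along with group and cannot separate macrophage content from group. Under it 0 of all probe sets passed in this comparison in limma, against 29 without it. Of the 16 neuron markers with a probe set (of 18), 14 were lower and 0 passed (smallest adjusted p = 0.531, limma). Their summed signal was 122627 to 243349 on the 3VO arrays of 24 h, against 158624 to 435424 on the intact arrays, and these overlapped. With the neuron markers as a covariate the Arntl difference was -0.45 (adjusted p = 0.682), and with the neuron and choroid plexus markers it was -0.36 (adjusted p = 0.841). With the neuron and choroid plexus markers the Per1 difference turned to -0.31. Without intact array 1 the Dbp difference was 0.23 (adjusted p = 0.910). The part of other cells in these values was not tested.

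With sham at 24 h against intact, 0 of 10 clock probe sets passed in limma, where 0% of all probe sets passed. An unadjusted p under 0.05 was held by 1 of the 10, against 2364 of all 15737 probe sets. That probe set, Nr1d2 1370541_at, was also the 1 without overlap (17.4% of all probe sets), with a log2 difference of 0.46 (SE 0.20, adjusted p = 0.309). It was 0.16 with the neuron and choroid plexus markers as covariates, 0.17 with the astrocyte markers and 0.28 with the smooth muscle markers. With 3VO at 3 d, 0 of 10 passed in limma and 0 were without overlap, against 0.222% and 15.4% of all probe sets. There 1 of the 10 had an unadjusted p under 0.05, against 2032 of all 15737. With sham at 3 d, 0 of 10 passed in limma and 0 were without overlap, against 0% and 15.2% of all probe sets. There 1 of the 10 had an unadjusted p under 0.05, against 2236 of all 15737. Between the times, 3 d against 24 h, 0 of 10 passed in limma in the 3VO arrays and 0 were without overlap, against 0% and 14% of all probe sets. Of the 10, 1 had an unadjusted p under 0.05, against 907 of all 15737. In the sham arrays 0 of 10 passed and 0 were without overlap, against 0% and 11.3%. Of the 10, 0 had an unadjusted p under 0.05, against 889 of all 15737. The F-test of limma over the 5 groups passed for 0 of 10, against 0.0763% of all probe sets, and its smallest p among the clock genes was that of Nr1d1 (0.0274, adjusted 0.356).

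**Figure D2:**
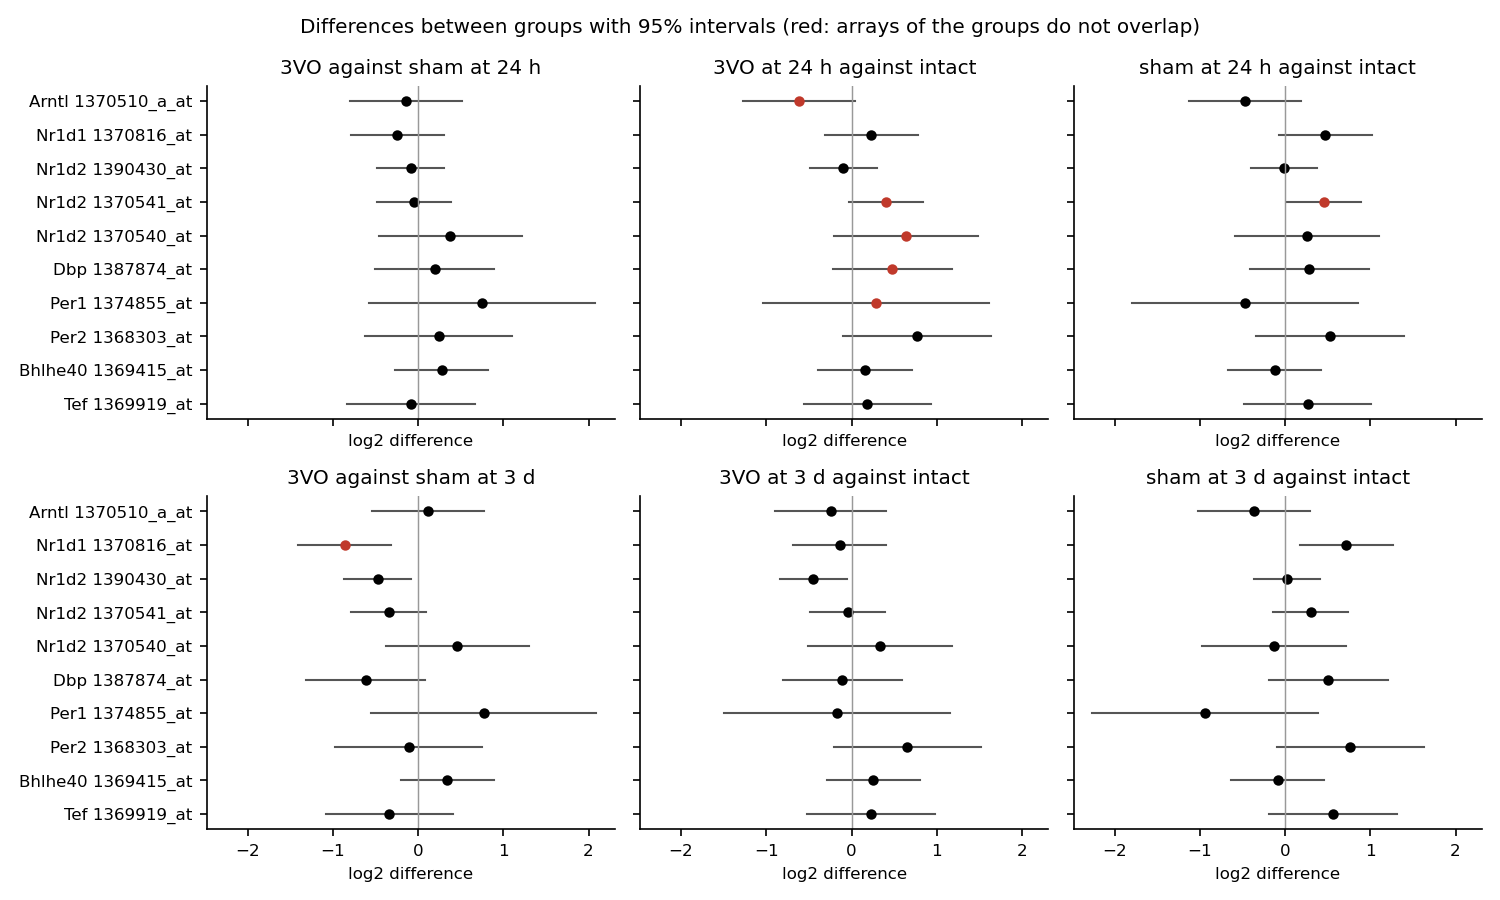
Log2 differences of the 10 clock probe sets with 95% intervals in 6 comparisons, each the first-named group minus the second, with red points where the arrays of the groups do not overlap. Red points stand at Nr1d1 for 3VO against sham at 3 d, at 5 probe sets for 3VO at 24 h against intact and at 1 for sham at 24 h against intact, and 0 of the 10 probe sets passed in any of the 6.

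Nr1d1, Nr1d2 and Arntl varied with Dbp from array to array, both over all arrays and within the groups, and other relations passed in one reading or in neither. For each gene the log2 signal of its brightest probe set was set against that of Dbp over the 15 arrays. These 7 relations had permutation tests with Benjamini-Hochberg adjustment over the 7. Nr1d2 stands for 1390430_at in all relations with Dbp, and its dimmer probe sets were not set against Dbp. The genes had been listed with earlier results of these arrays known, so the same relations are also placed among all 15727 other tested probe sets, whose median r with Dbp was 0.01. Nr1d1 followed Dbp, with a Pearson r of 0.86 (permutation p = 8e-05, adjusted 0.00056) and a Spearman rho of 0.85 (p = 0.0001, adjusted 0.0007), and 0 of the other probe sets had an r as far from 0. Nr1d2 had an r of 0.71 (permutation p = 0.00198, adjusted 0.00476) and a rho of 0.69 (p = 0.00533, adjusted 0.0124), with 17 other probe sets as far in either direction. Arntl ran the other way, with an r of -0.74 (permutation p = 0.00204, adjusted 0.00476) and a rho of -0.76 (p = 0.00126, adjusted 0.00441), with 8 other probe sets as far in either direction.

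Per2 was the fourth to pass, with an r of 0.61 (permutation p = 0.0169, adjusted 0.0295) and 139 other probe sets as far in either direction, and its rho of 0.57 did not pass after adjustment (p = 0.0291, adjusted 0.0509). Tef had an r of 0.42 (permutation p = 0.117, adjusted 0.149) and a rho of 0.51 (p = 0.054, adjusted 0.0757). Bhlhe40 had an r of 0.41 (permutation p = 0.128, adjusted 0.149) and a rho of 0.39 (p = 0.153, adjusted 0.179). In either direction, 1595 other probe sets lay as far from 0 as Tef, 1776 as far as Bhlhe40 and 2152 as far as Per1. Per1 had an r of 0.39 (permutation p = 0.155) and a rho of 0.35 (permutation p = 0.198), and its 2 bands make a pooled r a poor summary.

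The relations were then read without the 2 arrays farthest from the median of Dbp, 3VO array 3 of 3 d and intact array 1. Nr1d1 had an r of 0.78 on the remaining 13 arrays (permutation p = 0.00163), Nr1d2 of 0.90 (permutation p = 6e-05) and Arntl of -0.69 (permutation p = 0.0101). Per2 had an r of 0.41 (permutation p = 0.16), so its relation did not pass without those 2 arrays, whose removal also narrowed the range of Dbp. Without them Tef had an r of 0.51 (permutation p = 0.0732), Bhlhe40 of 0.52 (permutation p = 0.0691) and Per1 of 0.32 (permutation p = 0.299). Without sham array 1 of 3 d the 4 relations also passed, with an r of 0.89 for Nr1d1. The labels name no batch. With group means removed and arrays permuted within groups only (7776 orders, exact), r was 0.92 for Nr1d1 (p = 0.000257, adjusted 0.0018), 0.77 for Nr1d2 (exact p = 0.0233, adjusted 0.0407) and -0.75 for Arntl (exact p = 0.0211, adjusted 0.0407). Within groups Bhlhe40 passed too, at 0.78 (exact p = 0.00939, adjusted 0.0329), whereas Per2 at 0.63 (adjusted exact p = 0.0805), Per1 at 0.64 (adjusted exact p = 0.086) and Tef at 0.37 (adjusted exact p = 0.253) did not. By this r, other probe sets as far in either direction numbered 1 for Nr1d1, 51 for Nr1d2, 78 for Arntl and 45 for Bhlhe40. They numbered 372 for Per1, 468 for Per2 and 3931 for Tef.

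**Figure D3:**
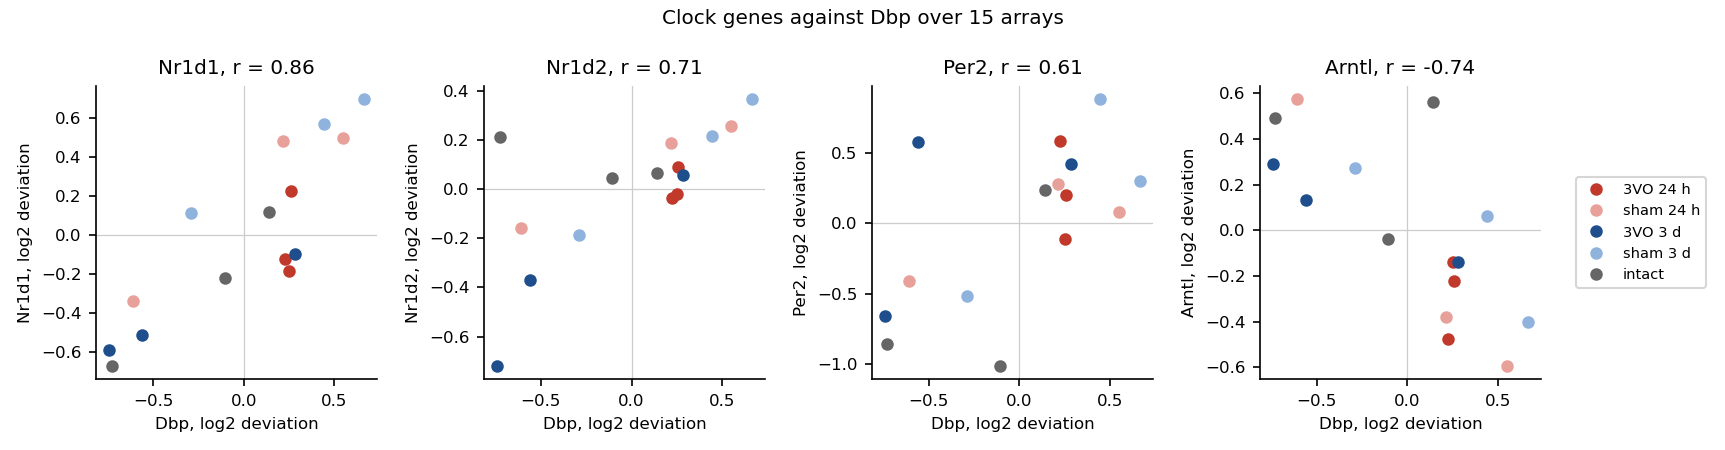
Log2 deviation from the gene's own 15-array mean of Nr1d1, Nr1d2, Per2 and Arntl (y axes) against that of Dbp (x axes), with 1 point per array coloured by group. Nr1d1 follows Dbp (r = 0.86), Arntl runs against it (r = -0.74), and the 3VO points of 24 h stay within 1.02-fold of each other in Dbp.

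**Figure D4:**
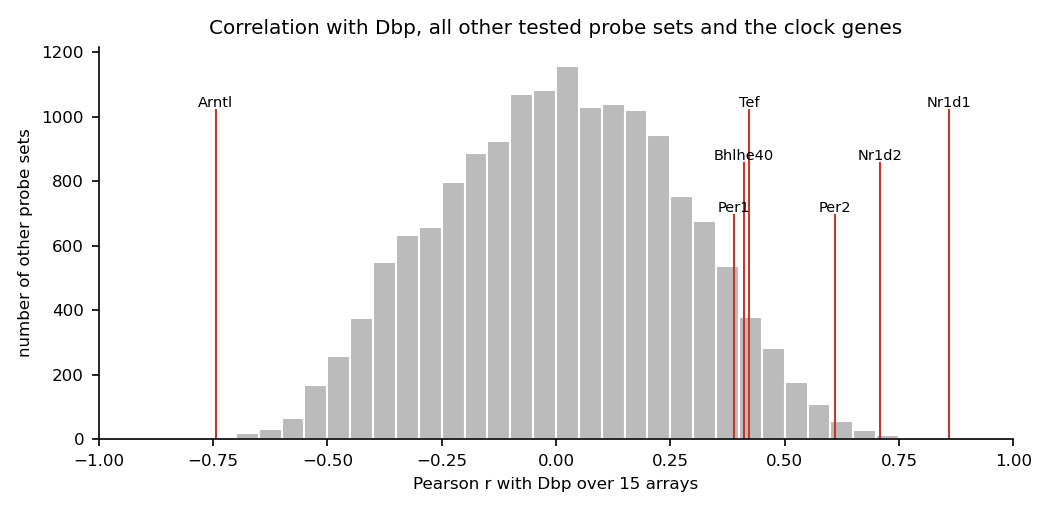
Number of other tested probe sets (y axis, 15727 in all) by their Pearson r with Dbp over 15 arrays (x axis, steps of 0.05), with red lines at the r of the 7 other clock genes. Nr1d1 lies beyond every other probe set, Arntl and Nr1d2 lie in the tails, and Per1, Bhlhe40 and Tef lie on the right slope of the histogram.

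Single arrays differed in how far they followed this pattern. On sham array 2 of 24 h, 0 of the 7 E-box targets were above their own 15-array mean, and Arntl was 0.57 above its mean (log2). On sham array 1 of 24 h, from the same group and time, 6 of the 7 were above their mean and Arntl was at -0.59. 3VO array 2 of 24 h and sham array 2 of 3 d had 7 of 7 above their mean, whereas 3VO array 3 and sham array 1 of 3 d had 1 of 7. Sham array 3 of 24 h and 3VO array 2 of 3 d each had 6 of 7 above their mean, with Arntl at -0.38 and -0.14. Some other arrays did not divide in this way. Intact array 2 had 6 of 7 above their mean with Arntl also above its own, by 0.56, and sham array 3 of 3 d had 5 of 7 with Arntl at 0.06. On 3VO array 3 of 24 h 3 of 7 were above their mean and Arntl was at -0.14. The mean deviation of the 7 targets minus that of Arntl, a description of where an array sits along this axis, ran between 0.16 and 0.66 on the 3VO arrays of 24 h and between -1.04 and 0.82 on the sham arrays of 24 h. It ran between -0.87 and 0.44 on the 3VO arrays of 3 d, between -0.76 and 0.87 on the sham arrays of 3 d and between -0.78 and -0.17 on the intact arrays. The 3VO arrays of 24 h were all positive and the intact arrays all negative, and the other 3 groups held arrays of both signs. With no clock time in the labels, hour of collection and group cannot be told apart.

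**Figure D5:**
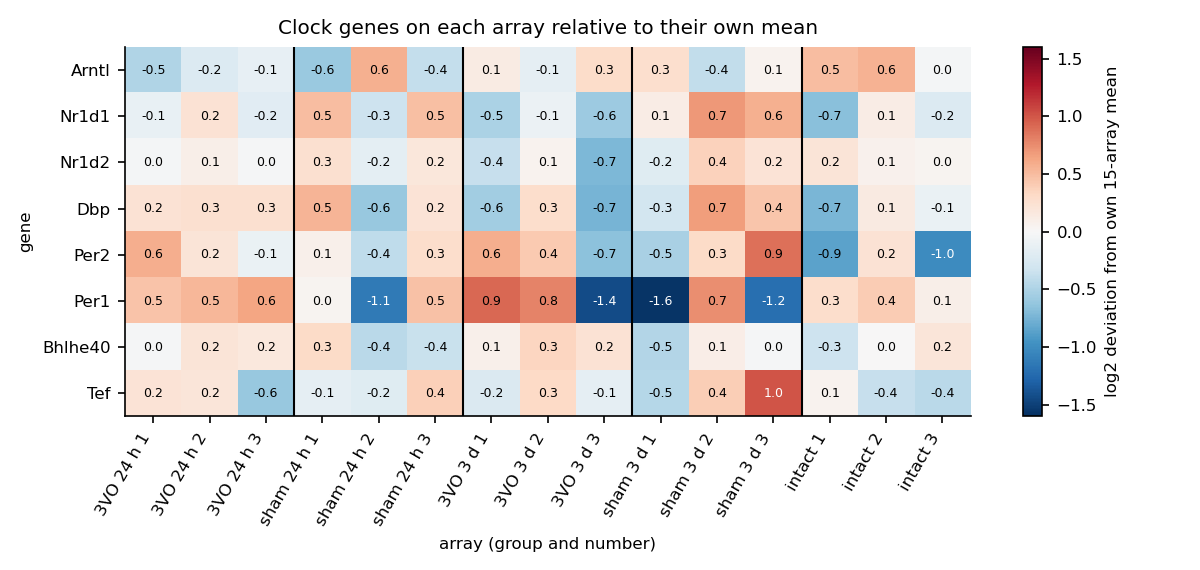
Log2 deviation of each clock gene (rows) on each of the 15 arrays (columns, by group) from the gene's own mean over the arrays, red above and blue below. Arntl is blue on the 3 arrays of 3VO at 24 h and red on sham array 2 of 24 h, where the 7 other rows are all blue.

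Other tissue in the pools varied along with some of these genes. Over all arrays the neuron marker mean had an r of -0.48 with Dbp, -0.61 with Nr1d1, -0.26 with Nr1d2 and 0.54 with Arntl. The smooth muscle marker mean had an r of 0.48 with Dbp, 0.66 with Nr1d1, 0.42 with Nr1d2 and -0.28 with Arntl. With the mean of the neuron markers removed, r with Dbp was 0.81 for Nr1d1 (adjusted permutation p = 0.00203), 0.69 for Nr1d2 (0.00948), -0.66 for Arntl (0.0201) and 0.55 for Per2 (0.063). With the mean of the smooth muscle markers removed, the adjusted permutation p was 0.00182 for Nr1d1 (r = 0.83), 0.0166 for Nr1d2 (r = 0.64), 0.00854 for Arntl (r = -0.72) and 0.0166 for Per2 (r = 0.65). Astrocyte markers ran against these genes within groups, with an r of -0.66 with Dbp, -0.70 with Nr1d1, -0.64 with Nr1d2 and -0.68 with Tef, given as descriptions over 15 arrays that share tissue and scaling. With their mean removed r was 0.80 for Nr1d1 (adjusted permutation p = 0.00273), 0.63 for Nr1d2 (0.0249), -0.67 for Arntl (0.021) and 0.52 for Per2 (0.0865), and Tef had 0.18 (0.52). Macrophage markers had an r of -0.57 with Arntl over all arrays, and with their mean removed r was 0.89 for Nr1d1, 0.78 for Nr1d2, -0.80 for Arntl and 0.60 for Per2, and all 4 passed. Nr1d1, Nr1d2 and Arntl thus passed with each of these 4 marker means removed in turn, settings that were chosen after the data had been seen. The 4 means were not removed together.

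Among 9973 probe sets of other genes with 1 gene symbol and a mean signal over 1000, the likeness to Dbp, as Pearson r over 15 arrays, was highest for Dtwd1 (0.79), Uvrag (0.77), Baz1a (0.77), Syngr2 (0.75) and Washc1 (0.73). It was lowest for Zfp280d (-0.79), Gnaq (-0.78), Nfil3 (-0.73), Ypel4 (-0.71) and Rnf39 (-0.70). These were picked for their r, which is therefore a description. Nfil3 (E4BP4), the repressor that competes with DBP for D-boxes, was also on the list of other clock genes. It had 1220, 1648 and 2447 on the 3VO arrays of 24 h, against 1060, 2475 and 2149 on the sham arrays of 24 h. After 3 d the signals were 2712, 680 and 2152 on the 3VO arrays, against 3085, 583 and 416 on the sham arrays, with 2833, 1905 and 2135 on the intact arrays. Its 3 lowest arrays of all 15, 3VO array 2 and sham arrays 2 and 3 of 3 d, were the 3 arrays of 3 d with the highest Dbp signal, and its groups overlapped.

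Of 21 other clock genes 14 had a probe set, and 0 of the 14 passed in any comparison in limma. For 3VO against sham at 24 h, 3 of the 14 were higher and 11 lower, with a median log2 difference of -0.10 against -0.02 over all probe sets, and 0 were without overlap (15.4% of all probe sets). At 3 d 7 were higher and 7 lower (median 0.00 against -0.01), with 0 without overlap (9.09% of all probe sets). Against intact, arrays did not overlap for 1 of the 14 with 3VO at 24 h (13.8% of all), 4 with sham at 24 h (17.4%), 3 with 3VO at 3 d (15.4%) and 1 with sham at 3 d (15.2%). On the brightest probe set of each gene, the smallest p of the F-test was that of Usp2 (0.0331, adjusted 0.373), a clock-controlled deubiquitinase. A dimmer probe set of Csnk1d had a smaller one (0.012, adjusted 0.287). Usp2 had 2821, 2149 and 3415 on the 3VO arrays of 24 h, against 2326, 2256 and 2355 on the sham arrays of 24 h. Values at 3 d were 2091, 4384 and 3567 on the 3VO arrays, against 3394, 4558 and 9382 on the sham arrays, with 4895, 7091 and 2884 on the intact arrays. The sham arrays of 3 d all lay above those of 24 h, and array 3 stood far above the rest of its group.

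Hlf, the third of the activators at D-boxes with Dbp and Tef, had 17476, 16864 and 13153 on the 3VO arrays of 24 h, against 22710, 16551 and 25318 on the sham arrays of 24 h. The 3 d signals were 16558, 17062 and 11337 on the 3VO arrays, against 17591, 17434 and 14740 on the sham arrays, with 11584, 14621 and 17582 on the intact arrays. The groups overlapped at both times, and the adjusted p of limma's F-test was 0.472. Per3, the third Per gene, was dim, with 473, 201 and 55 on the 3VO arrays of 24 h, 280, 246 and 713 on the sham arrays of 24 h, 237, 527 and 95 on the 3VO arrays of 3 d, 600, 439 and 240 on the sham arrays of 3 d, and 135, 84 and 123 on the intact arrays. All sham arrays lay above the intact arrays in Per3, at signals where some arrays fell below 100, and the adjusted p of limma's F-test was 0.561. Csnk1d, a kinase that marks PER proteins for degradation, ran between 8815 and 12442 on the 3VO arrays of 24 h, 9287 and 10850 on the sham arrays of 24 h, 10383 and 11022 on the 3VO arrays of 3 d, 8889 and 10729 on the sham arrays of 3 d, and 5820 and 10075 on the intact arrays. These are the signals of its brightest probe set, whose arrays did not overlap for 3VO at 3 d against intact and whose adjusted p in limma's F-test was 0.563.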

How the data were processed

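RNA of rat posterior cerebral artery was read on 15 Affymetrix Rat230A arrays, 3 per group. The deposited values are linear intensity per probe set, made by the authors in GCOS and scaled on each array, per the submitters' processing notes and design text; no source used here gives the GCOS version. Per the labels each array held RNA of 8 rats, and the design text speaks of repeated hybridisation, so p-values measure the spread between arrays, which may be technical in part. The number of arrays limits the precision. Gene symbols came from the platform annotation, updated through RefSeq identifiers: 12783 probe sets had 1 gene, 312 several and 2771 none, and 57 controls were left out. Intensity was analysed as log2(signal + 16) where it reached 100 on at least 3 arrays. The stated target of 500 against a trimmed mean of 5000 makes these limits loose on this scale, and a pseudocount of 160 with a minimum of 1000 was an alternative.

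Groups were compared with limma 3.58.1 (R 4.3.3; lmFit with 5 group means over all 15 arrays, eBayes with a variance trend, 10 residual and 4.83 prior degrees of freedom, 2-sided), with Benjamini-Hochberg adjustment over 15737 probe sets. The fit was tested on simulated data. Correlations used 100000 permutations in scipy 1.17.1 under Python 3.11.15. Promoter windows came from RefSeq, build GRCr8. All 8 genes and all their probe sets are named. Differences are printed where arrays of the 2 groups do not overlap, and for Nr1d1 in the groups of 3 d against intact. Of other lists, the 4 genes with the smallest F-test p are named, and the 5 probe sets most and least like Dbp. The genes, gene lists and marker lists (clock, glucocorticoid response, smooth muscle, endothelium, pericytes, neurons, astrocytes, oligodendrocytes, choroid plexus, macrophages and erythroid cells) were chosen with earlier results of these data known. Alternatives were other pseudocounts and filters, quantile normalization, median centring, no variance trend, array weights, marker covariates, each array left out in turn, and the 2 groups of a comparison alone. Array numbers follow accession order and pair nothing.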

Additional observations from a re-analysis of the deposited data

How the results depend on the processing

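No clock probe set passed in any of the 10 comparisons under any alternative (30 each, 29 for the F-test). Counts over all probe sets rested on 1 control array: without intact array 3, 227 passed for 3VO at 24 h, 258 for 3VO at 3 d, 818 for sham at 24 h and 184 for sham at 3 d, each against intact, and 107 in the F-test. In the other alternatives at most 45 passed for 3VO at 24 h, 72 for 3VO at 3 d, 3 for sham at 24 h and 1 for sham at 3 d, each against intact, and 4 to 68 in the F-test. For 3VO against sham 1 to 390 passed at 24 h, with 390 under the macrophage covariate, and 0 to 8 at 3 d. The Nr1d1 difference of 3VO against sham at 3 d ranged between -1.08 and -0.64. For 3VO at 24 h against intact, Arntl ranged between -0.80 and 0.16, Dbp between -0.0075 and 0.66, and Nr1d2 between 0.08 and 0.53 in 1370541_at and between 0.34 and 0.79 in 1370540_at. Arntl (0.16) and Dbp (-0.0075) turned with the macrophage markers as a covariate, and Per1 turned to -0.31 with the neuron and choroid plexus markers (the cause was not tested). Nr1d2 1370541_at for sham at 24 h against intact ranged between 0.16 and 0.52. Of the 7 relations with Dbp, 2 passed without the sham arrays of 24 h and 2 without the sham arrays of 3 d, where fewer arrays entered, against 4 over all arrays. Without the sham arrays of 24 h Arntl had an r of -0.66 (adjusted p = 0.0511), and Nr1d2 had 0.62 without the sham arrays of 3 d (adjusted p = 0.0537) and 0.55 without the 3VO arrays of 3 d (adjusted p = 0.0893). Leaving out each array in turn, 3 to 4 relations passed, with r between 0.83 and 0.89 for Nr1d1, 0.63 and 0.90 for Nr1d2, -0.85 and -0.70 for Arntl, and 0.53 and 0.77 for Per2. Per2 did not pass without 3VO array 3 of 3 d (0.55), sham array 3 of 3 d (0.57) or intact array 1 (0.53), nor in 9 other alternatives. Bhlhe40 passed without 3VO array 3 of 3 d (0.59, adjusted p = 0.0493) and without all 3VO arrays of 3 d (0.70), and Per1 with the neuron and choroid plexus markers removed (0.58, adjusted p = 0.0446). Nr1d1 passed in all 31 alternatives. Removing marker means, the 2 farthest arrays or single arrays from the relations, and the macrophage and astrocyte covariates, were chosen after seeing the data. No paired analysis was possible because the labels give no replicate numbers that groups share. With 3 arrays a group, 24 h and 3 d as the only times and no clock time, neither a daily rhythm nor its phase could be measured.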

Other observations

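Per1 is also a direct target of stress hormones, and genes of the glucocorticoid response were read beside the clock. Of 14 such genes 13 had a probe set, and 0 of the 13 passed in any comparison in limma. For 3VO against sham at 24 h, 10 of the 13 were higher and 3 lower, 4 were without overlap, 3 of them higher and Errfi1 lower (15.4% of all probe sets), and the median log2 difference was 0.17 against -0.02 over all probe sets. At 3 d 7 were higher and 6 lower, 0 were without overlap (9.09% of all probe sets), and the median was 0.02 against -0.01.

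Markers of other cells were read between the same groups of 24 h, and 0 of those given here passed in limma. Of all probe sets 15.4% were without overlap in this comparison. Of the smooth muscle markers 10 of 10 were lower in 3VO and 7 were without overlap. The summed signal of these markers was 278882 to 398852 on the 3VO arrays, against 483832 to 572209 on the sham arrays. Of the neuron markers 16 of 16 were higher (median log2 difference 0.96) and 5 were without overlap, with sums of 122627 to 243349 on the 3VO arrays, against 78983 to 139824 on the sham arrays. Of the macrophage markers 12 of 12 were higher (median 0.21) and 5 were without overlap, with sums of 298119 to 441957 on the 3VO arrays, against 212402 to 298995 on the sham arrays. Of the other lists, 5 of 8 pericyte, 3 of 5 erythroid, 3 of 10 astrocyte and 3 of 10 endothelial markers were without overlap. For choroid plexus (8 markers) and oligodendrocytes (7 markers) this number was 0. The part of other cells in the values of the glucocorticoid list was not tested.

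Mt2A, a metallothionein that glucocorticoids and metals induce, had the smallest F-test p of the list (0.00309, adjusted 0.214). It had 42541, 33934 and 33342 on the 3VO arrays of 24 h, against 17490, 16548 and 9870 on the sham arrays of 24 h, and 21620, 18045 and 26501 on the intact arrays. The 3VO arrays of 24 h lay above both other groups, with a log2 difference from sham of 1.36 (SE 0.27, adjusted p = 0.148). At 3 d it had 36113, 19562 and 16997 on the 3VO arrays, against 23145, 15010 and 19318 on the sham arrays, and these overlapped. Cdo1, cysteine dioxygenase, had 13984, 8874 and 14309 on the 3VO arrays of 24 h, against 5363, 7896 and 4705 on the sham arrays of 24 h, with a log2 difference of 1.05 (SE 0.25, adjusted p = 0.245). Its 2 groups of 24 h did not overlap, but the intact arrays, with 10672, 10524 and 7038, overlapped both.

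Fkbp5, a chaperone of the glucocorticoid receptor and one of its most used target genes, had 13528, 10953 and 8051 on the 3VO arrays of 24 h, against 7571, 7262 and 7917 on the sham arrays of 24 h. The 3VO arrays lay above the sham arrays, with a log2 difference of 0.48 (SE 0.21, adjusted p = 0.691). On the intact arrays Fkbp5 had 6380, 5268 and 8197, which overlapped both groups. Cebpd, a transcription factor of the acute phase, averaged 5036 ± 725 on the 3VO arrays of 24 h and 4072 ± 887 on the sham arrays of 24 h (SD, n = 3 each), and these overlapped. On the same arrays Per1 averaged 3531 ± 221 in 3VO at 24 h and 2310 ± 1136 in sham at 24 h (SD, n = 3 each), where 1 of the 3 sham arrays was in its low band. These groups overlapped in Per1. Its Pearson r with the mean of the glucocorticoid list was 0.29 over all arrays and 0.22 within groups, given as a description. That list holds Mt1a, which was below 100 on all operated arrays of 24 h. Mt1a reached 889 on 3VO array 1 of 3 d, the array with the highest Per1 signal (4577). The part of Mt1a in this r was not tested.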
